A study of Rattus norvegicus with 30 samples.

Results

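Liver RNA of 10 rats handled for 4 days was compared with that of 7 unhandled control rats, 17 of the 30 rats of the study. All rats were female Sprague-Dawley animals, 10 wk of age, with free access to feed and water. Handled rats were weighed, restrained and given water by oral gavage each day, and blood was drawn from the tail vein at 1, 2, 4 and 8 h after the last gavage. The control rats had none of these procedures. Euthanasia was on day 2 for the controls and on day 5 for the handled rats, so that handling and the day of euthanasia cannot be told apart in this comparison. The hour of euthanasia is not given in the sources used here. A further 10 rats, handled for 1 day and euthanised on day 2 like the controls, were in the same fit, and their values stand beside the others.

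The 7 control rats are those numbered 4 to 10. They were chosen by measured values, since control rats 1 to 3 were left out for the metabolic state of their livers. Fasn, the fatty acid synthase, had an intensity of 10.4 to 28.7 in control rats 1 to 3 and of 0.322 to 0.793 in control rats 4 to 10. Scd, which desaturates fatty acids, lay between 41.6 and 53.5 against 1.08 to 8.69. Cpt1a, which brings fatty acids into mitochondria, lay between 1.70 and 4.24 against 22.9 to 32.4. Pck1, a key enzyme of glucose production, lay between 10.8 and 37.8 against 41.2 to 50.7. Mt2A, a metallothionein, lay between 0.224 and 0.879 against 25 to 32.8. The control rats nearest to the boundary between the kept and the left-out animals were thus far apart in Fasn, at 0.793 and 10.4. Genes of fatty acid and cholesterol synthesis, fatty acid oxidation, glucose production and metallothioneins are given as a description for this reason, with no test. Intensities are on a linear scale on which the mean of every array is 1, and levels are compared only within a probe set.

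The liver sets its metabolism by feeding and by the hour of the day. Transcription factors of the circadian clock turn each other on and off over the day, and insulin, amino acids and sterols set the levels of the enzymes that make fat, store glycogen and break down amino acids. Hepatocytes also secrete complement, clotting and acute phase proteins, while Kupffer cells, lymphocytes and endothelial cells of the sinusoids share the tissue with them. Alb, the plasma protein that marks hepatocytes, had an intensity of 59.7 to 72.5 in control rats and 59.0 to 75.9 after 4 days. The summed intensity of 17 hepatocyte identity genes was 667 to 734 in control rats and 682 to 768 after 4 days. Of the 17, 0 was called by limma, with 1 at an unadjusted p under 0.05. Over all genes 5.18% were higher and 7.7% lower at that level. In pieces of whole liver, fewer cells of a type and less RNA per cell cannot be told apart.

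Of 31042 probe sets, 257 were called at an adjusted p under 0.1 (limma, Benjamini-Hochberg), or 0.828%. Of these, 131 were higher (0.422%) and 126 lower (0.406%) after 4 days of handling than in control rats 4 to 10. Of the 257, 15 belong to the 5 gene lists given only as a description. The other 242 were 118 higher and 124 lower. Acsl3, Tmem97, Mid1ip1, Mogat2 and G0s2, which are also described below without a test, are among these 242. Directions follow the sample labels. For several called genes that the study names they are opposite to those it gives with all its control rats. Among them are C4bpa, C5, Tgfbr1, Cd7, Il1a, Gstm4, Capns1 and Htra2. With all 10 control rats in the fit the log2 differences of C4bpa, C5 and Tgfbr1 stayed opposite, at 0.29, 0.40 and 0.30. Those of Cd7, Il1a and Gstm4 also did, at -0.62, -0.845 and -0.55. C1qc, Uchl3, Psmd9 and Pcna, not called here, were also opposite to the study's direction. How many of the other genes it names share its direction was not counted. The called changes were small. The median fold of the 257 was 1.43, with a range of 1.14 to 5.53, while 107 exceeded 1.5-fold and 31 exceeded 2-fold. A single gene symbol was available for 199 of the 257, which covered 191 genes. With 1 probe set per gene, 78 of 14217 genes were higher (0.549%) and 71 were lower (0.499%). All 10 handled rats lay beyond all 7 controls for 44 of the 257 called probe sets, 28 higher and 16 lower, and such a separation was seen in 59 of all 31042 (0.19%), 0.11% higher and 0.0805% lower. Of the 257, 37 had a control median below 0.123, the median intensity of the arrays, and so lay among the dimmer probe sets. For 13 of the 257, most rats of a group lay in the lowest 10% of the signals of their own array. With the 2 groups fitted alone 115 were called (0.37%), 103 of them among the 257. Leaving out 1 rat gave 74 calls without control rat 6 and 421 without control rat 7. The count was 137, 162, 147 and 129 without control rats 4, 5, 9 and 10, and 158 without handled rat 10.

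**Figure D1:**
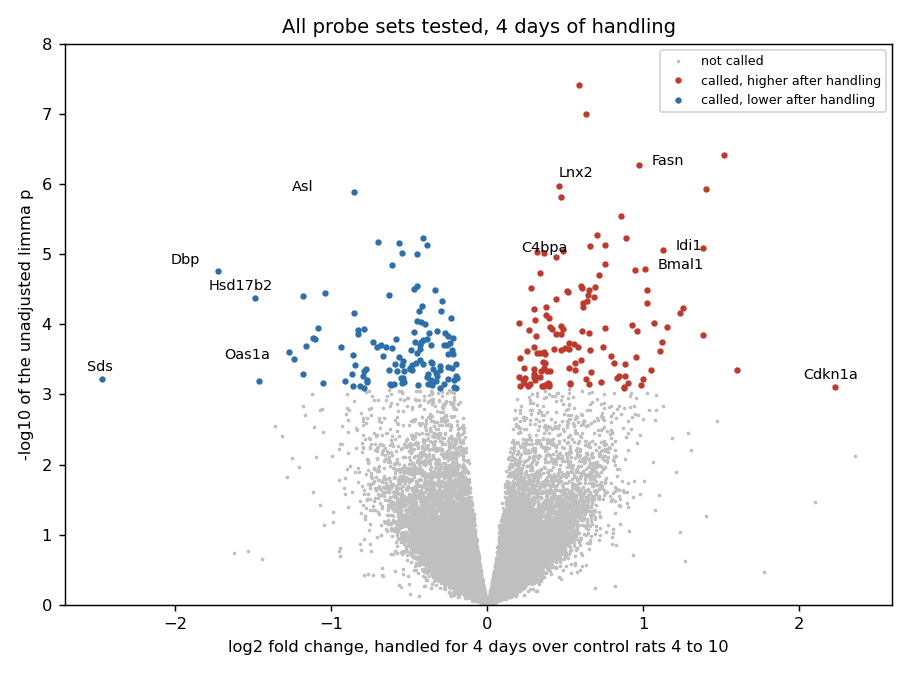
Change after 4 days of handling for all 31042 probe sets, with the log2 fold change over control rats 4 to 10 on the x axis and the negative log10 of the unadjusted limma p on the y axis. Red points are the 131 probe sets called higher, blue points the 126 called lower and grey points those not called. The largest called fall is Sds and the largest called rise is Cdkn1a, both with a p close to the limit of a call.

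Many of the calls touched genes that also set control rats 1 to 3 apart. For 136 of the 257, all 3 left-out rats lay beyond the range of control rats 4 to 10 on the side of the handled rats, and for 4 they lay beyond it on the other side. Over all probe sets, the 3 left-out rats lay together outside that range on either side for 4311 of 31042 (13.9%). Both positions are set against the same 7 controls. With all 10 control rats in the fit, 204 probe sets were called (0.657%), 73 of which were among the 257. The choice of controls thus enters the tests of many genes below. Of the 88 probe sets whose values are given here 76 were called, and 57 of these were not called with all 10 control rats.

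Of 3 array measures, 2 differed with handling. Probe sets for the 3′ and the 5′ end of Gapdh are on the array as a check of RNA and labelling. The log2 of their 3′ over 5′ signal was 0.550, 0.656 and 0.701 in control rats (lowest, median and highest) and 0.701, 0.741 and 0.963 after 4 days. All 10 handled rats were above all 7 controls, the nearest by less than the rounding, and by 0.129 on average (exact permutation test, two-sided, p = 0.000103, the smallest this design can give). The same ratio for beta-actin was 2.29 to 3.21 in controls and 2.73 to 3.83 after 4 days, with 2 of 10 rats above all controls and a mean difference of 0.474 (exact permutation test, two-sided, p = 0.00411). For hexokinase it was -1.55 to 0.991 in controls and -1.62 to 0.131 after 4 days, a difference of 0.119 (exact permutation test, two-sided, p = 0.774). With the Gapdh ratio as a covariate 51 probe sets were called (0.164%), 35 of them among the 257, and all 257 kept their sign. Since the ratio did not overlap between the groups, its part and that of handling cannot be told apart.

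The circadian clock had 19 measured genes, of which 3 rose and 2 fell. At an unadjusted p under 0.05 there were 6 higher and 7 lower, against 5.18% and 7.7% of all genes. Bmal1, the activator that drives the clock together with Clock, had intensities of 0.183, 0.223 and 0.294 in control rats (lowest, median and highest) and 0.352, 0.477 and 0.558 after 4 days. Every handled rat was above every control rat. The log2 fold change was 1.01 (SE 0.19, limma adjusted p = 0.0178), a 2.01-fold rise. Cry1, a repressor of the clock, was 0.138, 0.260 and 0.312 in controls and 0.284, 0.501 and 0.699 after 4 days, and rose by 1.07 on the log2 scale (SE 0.23, limma adjusted p = 0.0419). 8 of the 10 handled rats were above all controls in Cry1.

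Clock itself rose less, by 0.34 on the log2 scale (SE 0.08, limma adjusted p = 0.0585), from a median of 1.19 to 1.57. Its other 3 probe sets had changes of 0.31 to 0.60, and 1 of them was called. Dbp, a transcription factor that Bmal1 and Clock turn on, fell most within the clock. Its intensities were 0.880, 1.23 and 2.13 in controls and 0.245, 0.391 and 0.762 after 4 days, without overlap, and it fell by 1.73 on the log2 scale (SE 0.33, limma adjusted p = 0.0180). Per3, a period gene, was 0.200, 0.324 and 0.458 in controls and 0.0634, 0.114 and 0.274 after 4 days, and fell by 1.47 (SE 0.38, limma adjusted p = 0.0909). Its other probe set had -0.19 and was not called.

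Nr1d1 and Nr1d2 encode the REV-ERB receptors that repress Bmal1. Nr1d1 had a median of 0.726 in controls and 0.347 after 4 days, a log2 difference of -1.17 (limma adjusted p = 0.139), and 9 of the 10 handled rats were below all controls. Nr1d2 had medians of 2.67 and 2.14, a log2 difference of -0.51 (limma adjusted p = 0.109). Neither passed the test. Among the called clock genes, Bmal1, Cry1 and Clock were thus higher and Dbp and Per3 lower. Genes of repressors did not share a direction, since Cry1 rose while Nr1d1 and Nr1d2 had negative log2 differences.

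In the rats handled for 1 day, which share the controls, the log2 differences were 0.85 for Bmal1, 0.92 for Cry1, 0.25 for Clock, -1.42 for Dbp and -1.30 for Per3, of which Bmal1 and Dbp were called (limma adjusted p = 0.0669 and 0.0752). Among the rats handled for 1 day, 1 had 0.148 for Bmal1, below all controls, and 1 had 2.34 for Dbp, above all controls. The left-out control rats lay farther out than the handled rats, at 0.634 to 0.824 for Bmal1 and 0.128 to 0.162 for Dbp. All 3 lay outside the range of control rats 4 to 10 for 11 of the 19 clock genes, against 18.8% of all genes. With all 10 controls only Clock was called among the 19, and with the Gapdh ratio as a covariate only Bmal1.

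The bases upstream of Bmal1 are shown because REV-ERB and ROR receptors, which repress and activate this gene, bind the hexamer AGGTCA. In the 100 bases before the RefSeq start (build GRCr8, chr1:176766228-176766327, plus strand), the capitals mark the 1 match, whose last base lies 10 bases before the start.
Bmal1: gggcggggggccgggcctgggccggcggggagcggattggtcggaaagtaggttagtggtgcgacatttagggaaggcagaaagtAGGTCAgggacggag
Searched on both strands over the 250 bases before the start, AGGTCA was found in 14.1% of 33469 RefSeq windows. Among the 16 clock genes with a window it was found in 2, Bmal1 and Nr1d2. The match is a description of the letters and not of binding.

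**Figure D2:**
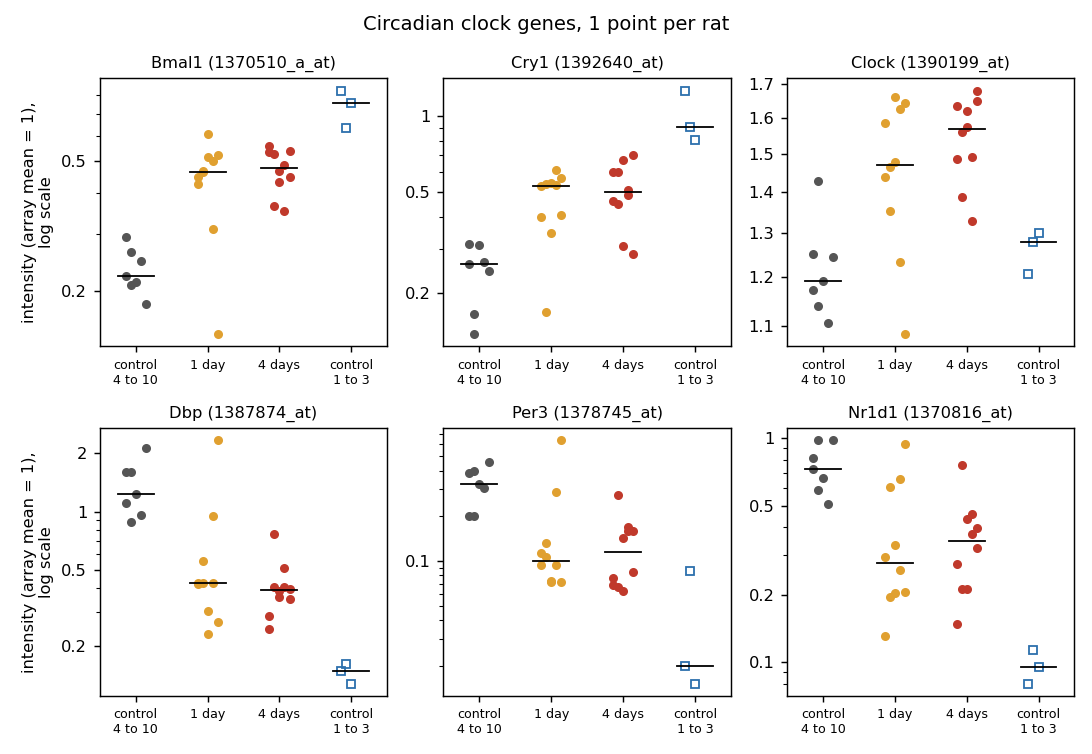
Intensity (mean of each array 1, log axis) of 6 clock genes in control rats 4 to 10, rats handled for 1 day, rats handled for 4 days and the left-out control rats 1 to 3, with 1 point per rat and a line at the median. After 4 days Bmal1 is above and Dbp below every control rat 4 to 10, and the left-out rats lie farther out on the same side.

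Genes of amino acid breakdown included the largest fall of the comparison. Sds, serine dehydratase, turns serine into pyruvate and ammonia and is known to follow protein intake and glucagon. Its intensities were 3.25, 7.80 and 14.0 in control rats and 0.0993, 1.79 and 6.02 after 4 days. 8 of 10 handled rats were below all controls, and the spread among them was wide. Sds fell by 2.47 on the log2 scale (SE 0.63, limma adjusted p = 0.0890), a 5.53-fold change. Sdsl, a related serine dehydratase, fell on both of its probe sets. On the dimmer one it was 0.158, 0.191 and 0.341 in controls and 0.0747, 0.0943 and 0.186 after 4 days, a fall by 1.04 (SE 0.21, limma adjusted p = 0.0249). On the brighter one it fell by 0.60 (SE 0.16, limma adjusted p = 0.0937). Of 52 measured genes of amino acid breakdown, these 2 fell and 0 rose, with a median log2 difference of 0.05. At an unadjusted p under 0.05 there were 8 higher and 4 lower, against 5.18% and 7.7% of all genes. The enzymes of this list thus did not move together.

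Asl, argininosuccinate lyase, makes arginine in the urea cycle. On one probe set it was 15.9, 19.4 and 21.3 in controls and 5.97, 10.8 and 16.2 after 4 days, and 9 of 10 rats were below all controls. It fell by 0.85 on the log2 scale (SE 0.14, limma adjusted p = 0.00577). The second probe set fell by 0.70 (SE 0.13, limma adjusted p = 0.0128). Asl was the only called gene of 11 measured genes of the urea cycle, whose median log2 difference was -0.05. One probe set of Slc25a15, the ornithine carrier of the mitochondrion, fell by 0.49 (limma adjusted p = 0.0771), while its other 5 probe sets ranged from -0.43 to 0.43 and were not called.

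Of 23 measured targets of ATF4, the factor that turns on genes when amino acids are scarce, 1 fell and 0 rose. At an unadjusted p under 0.05, 5 were lower and 0 higher, against 7.7% and 5.18% of all genes. Slc3a2, the heavy chain shared by several amino acid carriers, was 3.59, 4.96 and 5.84 in controls and 2.75, 3.5 and 4.24 after 4 days, and fell by 0.44 (SE 0.09, limma adjusted p = 0.0329). Slc38a2, a sodium-coupled carrier of neutral amino acids that was picked after its values were seen, was 2.18, 4.41 and 7.85 in controls and 1.60, 2.33 and 3.19 after 4 days, and fell by 0.87 (SE 0.22, limma adjusted p = 0.0834). Its groups overlapped, and 4 of 10 handled rats were below all controls.

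Trib3, a pseudokinase that ATF4 turns on and that binds AKT, fell by 0.79 on one probe set (SE 0.17, limma adjusted p = 0.0448), from a median of 0.793 to 0.413. Its 2 other probe sets were not called and had differences of -0.80 and -0.42. The window before Trib3 is shown for the element TGATGNAA, which C/EBP and ATF factors can bind together. In the 100 bases before its RefSeq start (GRCr8, chr3:161275534-161275633, minus strand) the capitals mark 1 match, which reads on the opposite strand.
Trib3: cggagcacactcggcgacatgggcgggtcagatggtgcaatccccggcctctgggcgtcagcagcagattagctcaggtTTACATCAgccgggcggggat
This element was found on either strand in 3.4% of all windows and in 5 of 22 ATF4 targets with a window.

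Of 20 measured genes of glucose production and glycogen, 11 had a positive and 9 a negative log2 difference, with a median of 0.05. Gys2, the liver glycogen synthase, was 5.67, 7.81 and 13.8 in control rats and 3.37, 4.48 and 7.50 after 4 days, with 2.36 to 2.42 in control rats 1 to 3. Ugp2, which makes the UDP-glucose that glycogen is built from, was 15.9, 18.9 and 22.1 in controls and 13.1, 14.5 and 18.3 after 4 days. Both belong to the list that is only described. Gyg1, glycogenin, on which a glycogen chain starts, was picked after its values were seen. It was 0.782, 0.891 and 0.992 in controls and 0.554, 0.708 and 0.877 after 4 days, and fell by 0.33 (SE 0.08, limma adjusted p = 0.0860). Pck1 had medians of 45.1 and 44.3, so its levels in the handled rats were those of control rats 4 to 10 and not of the left-out rats.

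Of 18 measured genes of insulin signalling, each read from its brightest probe set, Grb10 alone was called. Over all 41 probe sets of these genes 2 were called lower. Grb10, an adaptor that restrains the insulin receptor, was 0.0901, 0.149 and 0.198 in controls and 0.0377, 0.0823 and 0.126 after 4 days. It fell by 0.86 (SE 0.20, limma adjusted p = 0.0607). Control rats 2 and 3 were lower still, at 0.0318 and 0.0217. With all 10 controls in the fit none of Sds, Asl, Slc3a2, Slc38a2, Trib3, Gyg1 and Grb10 was called, and of these genes only the 2 probe sets of Sdsl were (limma adjusted p = 0.0412 and 0.0421). With the 2 groups fitted alone, Asl and the dimmer probe set of Sdsl kept their calls, while Sds, Slc3a2, Slc38a2, Trib3, Gyg1 and Grb10 did not (limma adjusted p = 0.147, 0.125, 0.125, 0.110, 0.161 and 0.130).

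**Figure D3:**
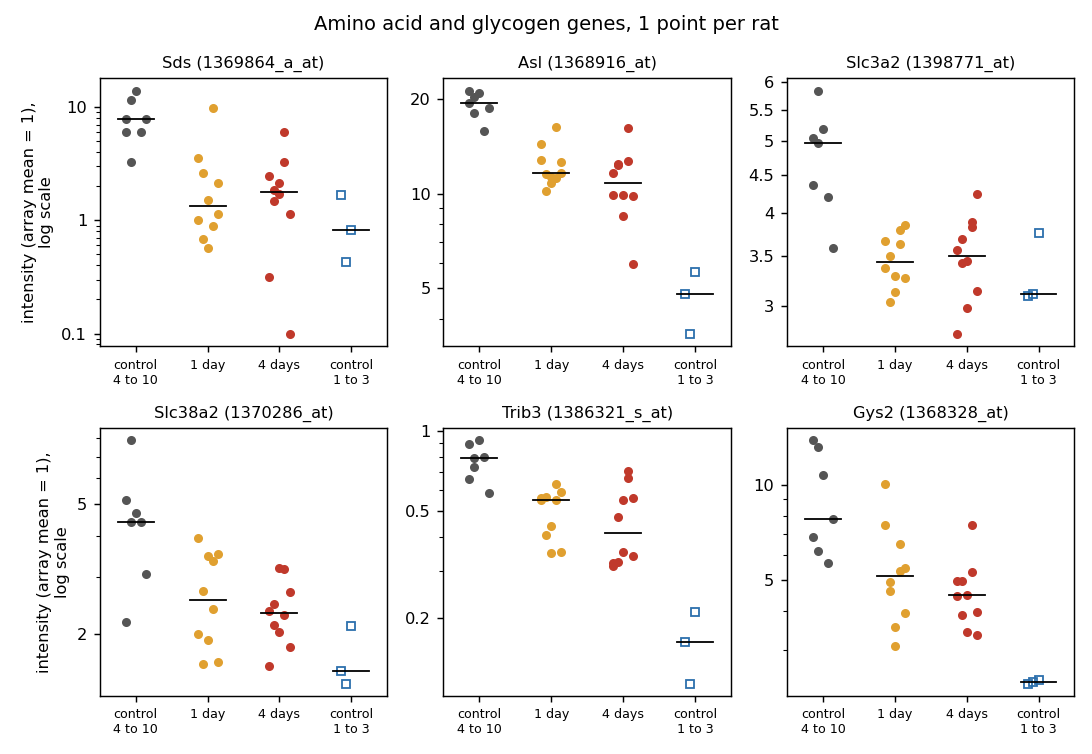
Intensity (mean of each array 1, log axis) of genes of amino acid use and glycogen in the 3 groups and the left-out control rats 1 to 3, with 1 point per rat and a line at the median. Sds spreads from 0.0993 to 6.02 after 4 days, and Asl is below every control rat 4 to 10 in 9 of 10 handled rats.

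Several genes of fat and sterol synthesis lay between the 2 kinds of control rat. Of the 23 measured genes of fatty acid synthesis, 17 had a positive and 6 a negative log2 difference, with a median of 0.14. Their summed intensity overlapped, at 71.6 to 96.1 in control rats 4 to 10 and 74.9 to 86.2 after 4 days. Fasn on its brighter probe set was 0.322, 0.484 and 0.793 in control rats 4 to 10 and 0.814, 0.959 and 1.30 after 4 days, without overlap. The left-out rats had 17.4, 28.7 and 10.4, so the handled rats stood far closer to the kept controls. Srebf1, the transcription factor that turns on fat synthesis, had medians of 0.710 and 1.26, with 7.75 to 14.8 in the left-out rats. Acly, which makes the acetyl-CoA for fat, had medians of 1.99 and 2.88, with 20.9 to 28.2 in the left-out rats. Scd went the other way, with medians of 2.43 and 1.5. Cpt1a had medians of 27.7 and 25.4, and Mt2A had 30.3 and 28.2, both close to control rats 4 to 10.

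The sterol pathway showed the same order of levels. Idi1, the isomerase of the isoprene unit, was 0.704, 1.53 and 2.03 in controls and 2.04, 3.29 and 4.86 after 4 days. Sqle, squalene epoxidase, was 0.147, 0.360 and 0.533 in controls and 0.409, 0.874 and 1.35 after 4 days. Msmo1, a methylsterol oxidase, had medians of 2.14 and 4.21. Cyp51, Fdps and Hsd17b7, further enzymes of the pathway, had medians of 5.19 and 8.15, 9.21 and 12.3, and 0.193 and 0.331. Srebf2, the transcription factor of this pathway, had medians of 0.986 and 1.26. The summed intensity of the 20 measured sterol genes was 48.7 to 68.1 in control rats 4 to 10 and 62.5 to 93.2 after 4 days, and 19 of the 20 had a positive log2 difference, with a median of 0.26. For all 20 the left-out rats lay together outside the range of control rats 4 to 10. The letters CCAAT, to which the factor NF-Y binds, were found upstream of 13 of 16 genes of the list with a RefSeq window, against 34% of all windows.

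A few single genes are described in the same way, with no test, because they have a part in these pathways or act on the same fats. The left-out rats stood apart in Acsl3, Tmem97 and Mid1ip1, but also in several genes that are tested here, among them Asl, Casp6 and Tubb2a. Acsl3, which activates long fatty acids, was 0.120, 0.249 and 0.297 in controls and 0.343, 0.386 and 0.572 after 4 days, without overlap. Tmem97, a sterol-regulated membrane protein, was 0.735 to 1.35 in controls and 1.39 to 1.71 after 4 days. Mid1ip1, which aids acetyl-CoA carboxylase, had a log2 difference of 0.63. The left-out control rats were higher still in all 3 genes, at 0.873 to 1.11, 3.15 to 5.48 and 2.32 to 6.66. With all 10 control rats the log2 difference was 0.22 for Acsl3, -0.01 for Tmem97 and -0.28 for Mid1ip1.

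Mogat2, which makes diacylglycerol, had low levels of 0.0151 to 0.0338 in controls and 0.0237 to 0.214 after 4 days. G0s2, an inhibitor of the lipase that empties fat droplets, was 3.62, 7.72 and 11.3 in controls and 8.59, 11.1 and 18.7 after 4 days. In rats handled for 1 day the median level was 0.975 for Fasn, 3.94 for Idi1 and 1.01 for Sqle, beside 0.959, 3.29 and 0.874 after 4 days.

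**Figure D4:**
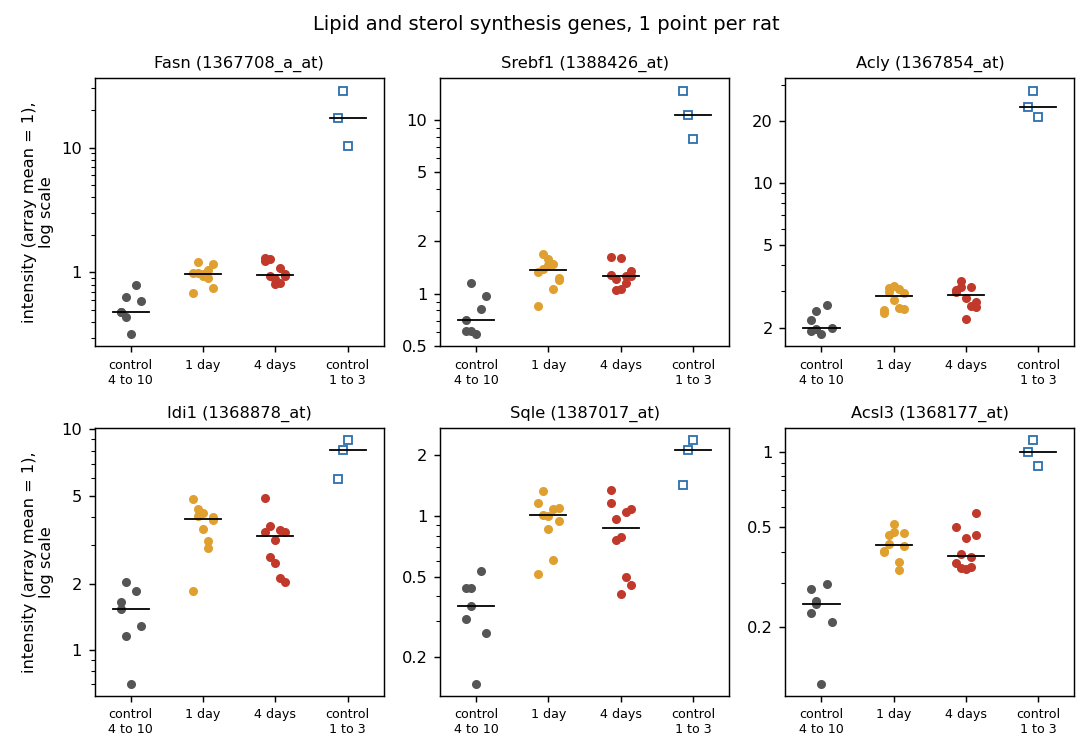
Intensity (mean of each array 1, log axis) of 6 genes of fat and sterol synthesis in the 3 groups and the left-out control rats 1 to 3, with 1 point per rat and a line at the median. For Fasn, Idi1 and Acsl3 every rat handled for 4 days is above every control rat 4 to 10, and the left-out rats are above all handled rats.

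Most interferon-stimulated genes, 24 of 28, had negative log2 differences after 4 days, but 1 alone was called. Of 28 measured genes, Oas1a fell, 0 rose, and 13 were lower and 0 higher at an unadjusted p under 0.05, against 7.7% of all genes lower at that level. The median log2 difference of the 28 was -0.33, and -0.02 after 1 day. Their summed intensity overlapped, at 67.3, 75.8 and 93.9 in controls (lowest, median and highest) and 51.7, 72.5 and 78.3 after 4 days. Oas1a, an enzyme that senses viral RNA, was 0.394, 0.581 and 1.14 in controls and 0.141, 0.241 and 0.792 after 4 days, and fell by 1.24 (SE 0.30, limma adjusted p = 0.0661). 8 of 10 handled rats were below all controls. Mx2 and Usp18, further interferon-stimulated genes, had log2 differences of -0.93 and -1.10 (limma adjusted p = 0.155 and 0.228). The other probe set of Mx2 had 0.16. Control rats 6 and 8 had the highest control values of Oas1a, Mx2 and Usp18, at 1.32 and 1.60 for Usp18. The left-out control rats did not stand apart in this list. For 4 of the 28 genes all 3 were outside the range of the others, and Oas1a was also called with all 10 controls (log2 difference -1.24, limma adjusted p = 0.0545).

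The upstream bases of Oas1a are shown for the core of the interferon-stimulated response element, a pair of GAAA boxes with 2 bases of any kind between them. The 100 bases before its RefSeq start (GRCr8, chr12:41330366-41330465, plus strand) hold 2 such pairs that share their middle GAAA, in capitals.
Oas1a: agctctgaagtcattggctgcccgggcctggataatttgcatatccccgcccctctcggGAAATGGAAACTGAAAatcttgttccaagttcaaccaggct
The last base of the second pair lies 26 bases before the start. The element was found on either strand in 3.41% of all windows and in 13 of 20 interferon-stimulated genes with a window.

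Markers of immune cells were lower or did not pass the test. Of 23 measured genes of T and NK cells, 2 fell and 0 rose, against 0.499% and 0.549% of all genes. The 23 had 4 lower and 0 higher at an unadjusted limma p under 0.05, against 7.7% and 5.18% of all genes. Cd7, a surface protein of T and NK cells, was 0.175, 0.303 and 0.435 in controls and 0.163, 0.178 and 0.246 after 4 days, and fell by 0.65 (SE 0.15, limma adjusted p = 0.0545). Nkg7, a granule protein of cytotoxic cells, was 0.158, 0.201 and 0.237 in controls and 0.108, 0.140 and 0.188 after 4 days, and fell by 0.49 (SE 0.12, limma adjusted p = 0.0559). Both were also called with all 10 controls. The summed intensity of the 23 genes was 3.17 to 5.30 in controls and 2.92 to 4.96 after 4 days. Defining T cell genes were dim on these arrays, with Cd3e at 0.0537 to 0.143 in controls and 0.0735 to 0.141 after 4 days.

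Of 16 measured Kupffer cell genes 0 was called by limma. At an unadjusted p under 0.05, 6 were lower and 0 higher, against 7.7% and 5.18% of all genes. Their summed intensity was 49.8 to 66.0 in controls and 44.1 to 58.2 after 4 days. Clec4f, a lectin found on Kupffer cells, had medians of 9.60 and 7.66 (log2 difference -0.33, limma adjusted p = 0.120), and C1qc, a chain of C1q made by macrophages, had 4.24 and 3.06 (log2 difference -0.41, limma adjusted p = 0.126). One probe set of Cd5l, a secreted macrophage protein, fell by 0.68 (SE 0.16, limma adjusted p = 0.0544), while its brighter one had -0.47 and was not called. Il1a, the cytokine interleukin 1 alpha, fell by 0.85 on one probe set (SE 0.18, limma adjusted p = 0.0335), from 0.204 to 0.394 in controls to 0.0709 to 0.210 after 4 days, while its other probe set had -0.40 and was not called. Itgb2, an integrin chain of leukocytes, fell by 0.48 (SE 0.12, limma adjusted p = 0.0727). The list of cytokines, chemokines and adhesion had 27 genes read from their brightest probe sets, with Tgfbr1 called higher and Cd7 lower. Among the 27, 2 were higher and 10 lower at an unadjusted limma p under 0.05. With the 2 groups fitted alone none of Oas1a, Cd7, Nkg7, Cd5l, Il1a and Itgb2 was called (limma adjusted p = 0.150, 0.116, 0.115, 0.157, 0.116 and 0.175). With the Gapdh ratio as a covariate none of them was called either, and Il1a had a log2 difference of -0.51 (limma adjusted p = 0.430). The part of cell numbers in these values was not tested.

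These immune genes lay closer to the controls after 1 day. The log2 differences against the same controls were -0.53 for Oas1a, -0.26 for Cd7, -0.16 for Nkg7, -0.02 for Cd5l and -0.22 for Il1a, and none was called. When the rats handled for 4 days were set against those handled for 1 day, which uses no control values, limma called 0 of 31042 probe sets (0%), with 1884 at an unadjusted p under 0.05 (6.07%). In that comparison Cd5l was lower by a log2 difference of -0.66 (limma adjusted p = 0.578), Il1a by -0.64 (limma adjusted p = 0.732) and Oas1a by -0.71 (limma adjusted p = 0.794). A difference between 4 days and 1 day was thus not shown for any of them.

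Complement genes included 2 rises and 0 falls among 27 measured. The 27 had 19 positive and 8 negative log2 differences, with 3 higher and 3 lower at an unadjusted limma p under 0.05. Over all genes 5.18% were higher and 7.7% lower at that level. The study reports decreases of both risen genes, C4bpa and C5. C4bpa, a plasma inhibitor of complement, was 25.1, 27.4 and 29.8 in controls and 31.8, 34.0 and 36.4 after 4 days, without overlap, and rose by 0.32 (SE 0.06, limma adjusted p = 0.0128). C5, which gives rise to the membrane attack complex, was 8.74, 9.50 and 11.2 in controls and 11.2, 12.7 and 14.0 after 4 days, with 9 of 10 rats above all controls, and rose by 0.37 (SE 0.08, limma adjusted p = 0.0306). Both were called with all 10 controls (limma adjusted p = 0.0412 and 0.0198) and after 1 day (log2 differences 0.29 and 0.35). With the Gapdh ratio as a covariate neither was called, at log2 differences of 0.28 and 0.33. The median log2 difference of the 27 was 0.08.

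Other secreted liver proteins were not called. Of 19 acute phase genes and 18 coagulation genes, 0 was called by limma, with 5 and 3 higher and 0 lower at an unadjusted p under 0.05. Of all genes 5.18% were higher and 7.7% lower at that level. Orm1, an acute phase glycoprotein that glucocorticoids and cytokines raise, had a log2 difference of 0.54 (limma adjusted p = 0.188). The median summed intensity was 619 in controls and 638 after 4 days for the acute phase genes, and 494 and 514 for the coagulation genes.

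**Figure D5:**
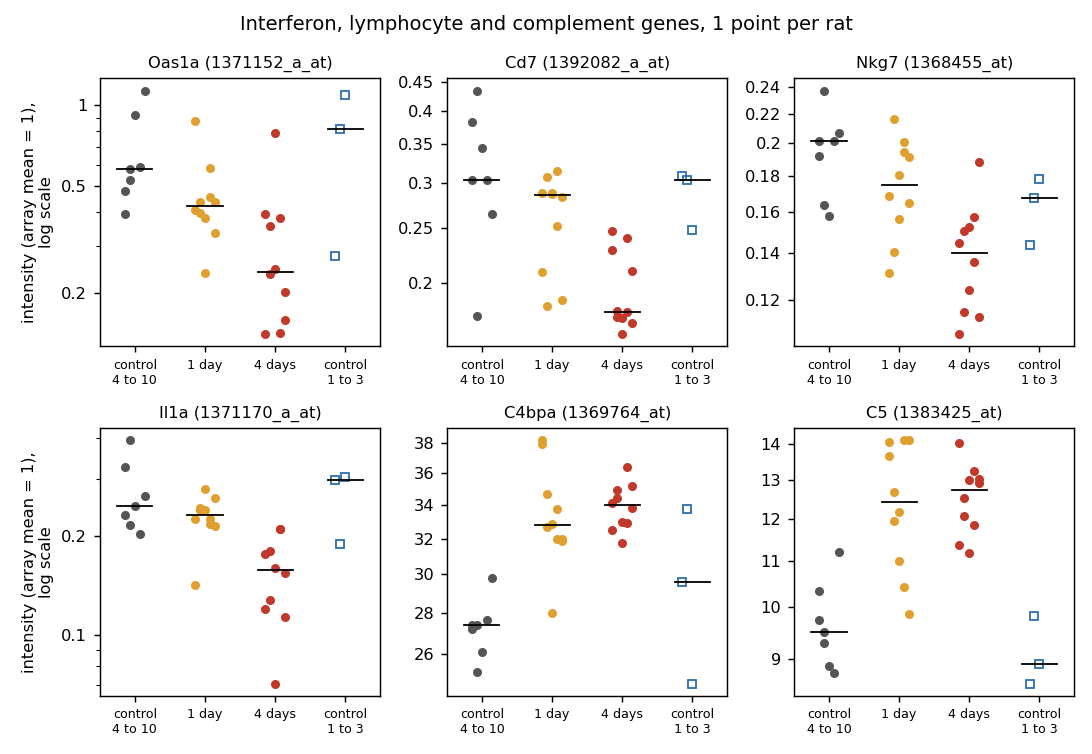
Intensity (mean of each array 1, log axis) of interferon, lymphocyte, cytokine and complement genes in the 3 groups and the left-out control rats 1 to 3, with 1 point per rat and a line at the median. After 4 days Oas1a is below all control rats 4 to 10 in 8 of 10 rats and C4bpa is above them in 10 of 10.

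Genes of hormone and stress response were mixed. Of 19 measured glucocorticoid-induced genes, each read from its brightest probe set, 1 rose and 0 fell. Counting all 26 probe sets of these genes, 1 was called higher and 1 lower. At an unadjusted p under 0.05, 2 of the 19 genes were higher and 4 lower, against 5.18% and 7.7% of all genes. The called gene was Cdkn1a, the cell cycle inhibitor p21, which was also the 1 called gene of 12 p53 targets and of 16 G1 regulators. Cdkn1a was 0.0401, 0.0840 and 0.306 in controls and 0.146, 0.448 and 2.12 after 4 days, and rose by 2.23 (SE 0.59, limma adjusted p = 0.0962), a 4.68-fold change. 6 of 10 handled rats were above all controls. Its second probe set had 0.83 and was not called. After 1 day the log2 difference was 2.15, and the left-out control rats had 0.350 to 0.882. Cdkn1a kept its call in 8 of the 27 fits that each left out 1 rat.

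Immediate early genes had 0 calls among 17 by limma. At an unadjusted p under 0.05, 4 were lower and 0 higher, against 7.7% and 5.18% of all genes. The count reads Dusp1 from its brighter probe set. Dusp1, a phosphatase that ends MAP kinase signals, was 0.613, 0.744 and 1.10 in controls and 0.131, 0.362 and 0.726 after 4 days on the dimmer of its probe sets, and fell by 1.05 (SE 0.27, limma adjusted p = 0.0936), while its brighter probe set had -0.41. Nr4a2, Crem, Plk3 and Ppp1r15a, which are not in that list, were picked after their values were seen. Nr4a2, a nuclear receptor, fell by 0.83 (SE 0.19, limma adjusted p = 0.0462), and Crem, a partner of the cAMP-responsive factor CREB, by 0.79 (SE 0.20, limma adjusted p = 0.0776). The other probe set of Nr4a2 had -0.59 and the other 5 of Crem -0.56 to -0.37, none of them called. Plk3, a stress kinase, fell by 0.79 (SE 0.21, limma adjusted p = 0.0989). Ppp1r15a, which restarts translation after stress, fell by 0.67 (SE 0.16, limma adjusted p = 0.0617). With the 2 groups fitted alone Nr4a2 kept its call (limma adjusted p = 0.0931) and Cdkn1a, Dusp1, Crem, Plk3 and Ppp1r15a did not (0.136, 0.160, 0.160, 0.171 and 0.141). With all 10 controls Crem alone of these 6 was called (limma adjusted p = 0.0926).

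The window before Dusp1 is shown for the cAMP response element, TGACGTCA, to which CREB binds. From 150 to 51 bases before the RefSeq start (GRCr8, chr10:17184703-17184802, plus strand) the capitals mark its 1 position, a palindrome that reads alike on both strands.
Dusp1: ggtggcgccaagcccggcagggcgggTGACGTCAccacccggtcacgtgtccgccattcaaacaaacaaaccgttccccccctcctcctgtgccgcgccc
The element was found in 1.59% of all windows.

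Inhba, a subunit of activin, was 0.353, 0.705 and 1.04 in controls and 0.715, 1.28 and 2.85 after 4 days, and rose by 1.23 (SE 0.26, limma adjusted p = 0.0335). Its second probe set was also called, at 0.96. Tgfbr1, a receptor of TGF beta, rose by 0.30 (SE 0.07, limma adjusted p = 0.0770), and the pair made 2 rises and 0 falls among 21 genes of TGF beta signalling. The 21 had 11 positive and 10 negative log2 differences, with 2 higher and 0 lower at an unadjusted limma p under 0.05. Over all genes 5.18% were higher and 7.7% lower at that level. S1pr1, a receptor for sphingosine 1-phosphate, was 3.75, 4.31 and 6.30 in controls and 6.33, 7.32 and 9.41 after 4 days, without overlap, and rose by 0.70 (SE 0.12, limma adjusted p = 0.0128). Agtr1a, the angiotensin receptor of the liver, was 8.91, 10.2 and 10.8 in controls and 11.1, 11.9 and 13.3 after 4 days, also without overlap, and rose by 0.28 (SE 0.06, limma adjusted p = 0.0247). Agtr1a was the 1 called of 8 renin-angiotensin genes read from their brightest probe sets. Over all their probe sets 1 was also called lower. Agtr1a was called with all 10 controls as well (limma adjusted p = 0.0173), but not with the Gapdh ratio as a covariate (limma adjusted p = 0.210). Stat5a, a transcription factor downstream of growth hormone, rose by 0.35 (SE 0.09, limma adjusted p = 0.0950), the 1 call among 24 genes of growth hormone action. With all 10 controls Inhba, S1pr1 and Stat5a were not called, at log2 differences of 0.59, 0.39 and 0.05 (limma adjusted p = 0.525, 0.360 and 0.938). Control rats 1 to 3 had 2.48 to 2.83 for Inhba and 9.17 to 10.5 for S1pr1.

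Genes of steroid, drug and bile handling moved singly. Hsd17b2, which inactivates estradiol and testosterone, was 5.46, 9.85 and 13.4 in controls and 1.19, 3.75 and 4.83 after 4 days, without overlap, and fell by 1.49 (SE 0.30, limma adjusted p = 0.0267). Its level after 1 day was 2.02, 4.00 and 10.3. Abcc2, the pump that brings conjugates into bile, was 9.14, 11.1 and 14.3 in controls and 6.63, 7.76 and 9.38 after 4 days, and fell by 0.57 (SE 0.10, limma adjusted p = 0.0128), the 1 call among 25 bile acid genes and among 20 transporters. Abcc2 was called with all 10 controls too (limma adjusted p = 0.0847). Cyp1a2 rose by 0.37 (SE 0.10, limma adjusted p = 0.0950), the 1 call among 31 cytochrome P450 genes. With all 10 controls Hsd17b2 and Cyp1a2 were not called (log2 differences -1.09 and 0.31, limma adjusted p = 0.138 and 0.166). Of 33 genes of NRF2 and glutathione, Oplah, which returns glutamate from oxoproline, rose by 0.40 (SE 0.10, limma adjusted p = 0.0937), and Gstm4, a glutathione transferase, fell by 0.54 (SE 0.10, limma adjusted p = 0.0128). Gstm4 was 0.759, 1.01 and 1.19 in controls and 0.542, 0.715 and 0.774 after 4 days, and both were also called with all 10 controls. With the Gapdh ratio as a covariate Abcc2, Oplah and Gstm4 were not called (limma adjusted p = 0.130, 0.492 and 0.130). Hsd17b2 and Cyp1a2 kept their calls there (limma adjusted p = 0.0642 for each).

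Several of the smallest p-values belonged to genes outside these groups. Lnx2, a ubiquitin ligase, was 0.611, 0.714 and 0.804 in controls and 0.869, 0.956 and 1.22 after 4 days, without overlap, and rose by 0.46 (SE 0.07, limma adjusted p = 0.00577). Clpx, which unfolds proteins for a mitochondrial protease, rose by 0.44 (SE 0.08, limma adjusted p = 0.0135), from 4.58 to 5.12 in controls to 5.78 to 7.86 after 4 days. Lgalsl, a galectin-like gene, rose by 0.89 (SE 0.16, limma adjusted p = 0.0128), Tprn by 0.48 (SE 0.09, limma adjusted p = 0.0128) and Tmem37 by 0.69 (SE 0.14, limma adjusted p = 0.0247), each without overlap. Tprn had a log2 difference of 0.14 after 1 day, and 4 days against 1 day gave 0.34 (limma adjusted p = 0.618, not called). It kept its call with all 10 controls, in the comparison of the 2 groups alone and with the Gapdh ratio as a covariate (limma adjusted p = 0.0412, 0.0268 and 0.0345). With all 10 controls Lnx2, Clpx, Lgalsl and Tmem37 were not called, at log2 differences of 0.28, 0.32, 0.39 and 0.37 (limma adjusted p = 0.242, 0.104, 0.583 and 0.407).

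Among the falls without overlap, Casp6, a caspase that carries out apoptosis, was 2.37, 2.53 and 2.74 in controls and 1.66, 1.96 and 2.06 after 4 days (log2 difference -0.41, SE 0.07, limma adjusted p = 0.0128). Slc8b1, the mitochondrial exchanger of sodium and calcium, was 0.693, 0.742 and 0.787 in controls and 0.470, 0.565 and 0.666 after 4 days (log2 difference -0.39, SE 0.07, limma adjusted p = 0.0128). Control rats 1 to 3 were lower still in Casp6, at 1.06 to 1.24, and with all 10 controls neither was called, at -0.07 and -0.21 (limma adjusted p = 0.914 and 0.388). Apex1, the endonuclease of base excision repair, fell by 0.35 (SE 0.09, limma adjusted p = 0.0770), the 1 call among 17 genes of that pathway, while its other probe set had 0.31 and was not called. Mrps25, a mitochondrial ribosomal protein, fell by 0.20 (SE 0.05, limma adjusted p = 0.0718). It was the 1 call among 52 genes of mitochondrial RNA and translation read from their brightest probe sets. Over all probe sets of these genes 1 was called higher and 2 lower. Lrpprc was called higher without overlap on 1 dim probe set, while its 2 others had negative differences. That call held with all 10 controls but not with the Gapdh ratio as a covariate. Tubb2a, a tubulin, rose by 1.02 (SE 0.20, limma adjusted p = 0.0247), from 1.70 to 3.10 in controls to 2.42 to 8.22 after 4 days. Control rats 1 to 3 were above every handled rat in Tubb2a, at 12.8 to 13.2, and with all 10 controls the log2 difference was 0.25 (limma adjusted p = 0.848). Mbp rose by 1.38 on 1 probe set (SE 0.31, limma adjusted p = 0.0462), while its 2 others had -0.09 and 0.22. Mrps25 and Mbp were not called with all 10 controls (limma adjusted p = 0.309 and 0.127).

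Thsd4, Unc80, Cald1, Pask, Zfhx4 and Ace, the angiotensin-converting enzyme, were called lower on probe sets at the bottom of the arrays, so that no size is given for their falls. Thsd4 was 0.0495 to 0.0891 in controls and 0.0163 to 0.0485 after 4 days (limma adjusted p = 0.0579). The lowest 10% of the signals of an array ended at 0.0217 to 0.0240. Of the 10 handled rats, 5 lay in that range for Thsd4, 6 for Unc80, 9 for Cald1, 5 for Pask, 6 for Zfhx4 and 5 for Ace, against 1 control rat for Cald1 and 0 for the other 5 genes. No other probe set of these genes was called. It had a log2 difference of 0.31 for Thsd4, -0.10 for Unc80 and -0.04 for Ace, while 2 of Cald1 had -0.15 and 0.03, 3 of Zfhx4 had 0.07 to 0.17 and Pask had none.

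Many gene groups had no call. limma called 0 members of the lists of class I and class II antigen presentation, neutrophils, B cells, stellate cells, sinusoidal endothelium, erythroid cells and bile duct epithelium. It also called 0 members of the lists of iron and hepcidin, heme synthesis, apolipoproteins, proliferation, heat shock, chaperones of the endoplasmic reticulum, proteasome and ubiquitin, cytosolic ribosomal proteins, and respiratory chain and ATP synthase. These counts read each gene from its brightest probe set. Over all probe sets, 1 of the iron and hepcidin list was called higher. At an unadjusted p under 0.05, 5.18% of all genes were higher and 7.7% lower. At that level endoplasmic reticulum chaperones had 5 higher and 0 lower of 20, and cytosolic ribosomal proteins had 0 higher and 6 lower of 29. Proteasome genes had 0 higher and 4 lower of 37, proliferation genes 1 higher and 3 lower of 29, and respiratory chain genes 0 higher and 1 lower of 58. Erythroid genes had 2 higher and 0 lower of 16, with sums of 17.7 to 29.3 in controls and 16.1 to 39.0 after 4 days. Tfr2, a sensor of transferrin iron, did not pass the test (log2 difference 0.19, limma adjusted p = 0.112), although all 10 handled rats, at 7.95 to 9.30, were above all controls, at 7.10 to 7.95, where the ends differ by less than the rounding.

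After 1 day of handling 102 probe sets were called against the same controls (0.329%), and 63 were called on both days. Hsd17b2, S1pr1, Lnx2 and Inhba, called after 4 days, had log2 differences of -1.16, 0.48, 0.29 and 0.91 after 1 day with limma adjusted p-values of 0.137, 0.129, 0.120 and 0.206. Casp6, Abcc2 and Clpx were called on both days, with log2 differences after 1 day of -0.36, -0.44 and 0.49. With the 2 groups fitted alone Tgfbr1, Ace, Oplah, Cyp1a2, Apex1, Mrps25, Cald1 and Pask lost their calls, while Bmal1, Dbp, C4bpa, C5, Hsd17b2, Abcc2, Gstm4, S1pr1, Agtr1a and Inhba kept them. Because the days share their controls, a match of direction between them is not counted here.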

How the data were processed

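Total RNA from the left liver lobe of each rat was labelled with a 3′ kit and hybridised to 1 Affymetrix rat genome array. The deposited table holds linear intensities that the authors had processed, with 1 value for each array and probe set. In the deposited table the mean over the non-control probe sets is 1 for every array, as read from the values. The software steps behind this scaling are not given in the sources used here.

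The array has 31099 probe sets, of which 57 are Affymetrix controls and were not tested. Of the 31042 tested, 20826 carry 1 gene symbol (20758 with a symbol in the RefSeq table), 436 several and 9780 none. Gene symbols come from the array annotation, updated through RefSeq. Median intensities were 0.121 to 0.124 in control rats 4 to 10 and 0.118 to 0.125 after 4 days. No 2 arrays were identical. The number of arrays limits the precision. Each rat gave 1 array, and the groups hold different animals.

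log2 intensities without an offset were fitted with lmFit and eBayes of limma 3.58.1 (R 4.3.3, two-sided), with control rats 4 to 10 and both handled groups in 1 fit of 27 rats. p-values were adjusted by Benjamini-Hochberg over the 31042. The script was tested on simulated data. Permutation tests used scipy 1.17.1 in Python 3.11.15.

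The members and the 48 gene lists were chosen with earlier results of these data known, so no p adjusted over a list is given. In lists a gene is read from its brightest probe set, and 5 lists are described without a test. Named genes are the 12 largest rises and falls among called probe sets with 1 symbol, the 10 smallest p, up to 6 called members of each list (or the 2 smallest p), up to 20 called genes without overlap, and Scd, Fasn, Srebf1, Cpt1a, Pck1 and Mt2A. Not every gene the rule gives is named. Nr1d1, Nr1d2, Slc38a2, the dimmer probe set of Sdsl, Trib3, Slc25a15, Gyg1, Hsd17b7, Mid1ip1, G0s2, Mx2, Usp18, Cd5l, Il1a, Itgb2, Nr4a2, Crem, Plk3, Ppp1r15a, Alb and Cd3e were chosen after their values were seen, as was the comparison of 4 days with 1 day. Upstream sequences are RefSeq's (GRCr8, 250 bases before each start), and 33469 windows were searched.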

Additional observations from a re-analysis of the deposited data

Results flagged for a closer look

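In 8 of 176 groups of rats tested for 1 far value (88 probe sets in 2 groups each), the highest or the lowest rat stood far from the rest of its group on the log2 scale. Chance alone flags about 1 in 20 groups. Control rat 6 was the low one for Unc80 (0.0269) and Acsl3 (0.120) and the high one for the brighter probe set of Sdsl (0.753). Among rats handled for 4 days, rat 9 was high for Cald1 (0.0434), rat 4 for Ace (0.0686), rat 10 for Tmem37 (4.17) and rat 1 for Ugp2 (18.3), and rat 5 was low for Usp18 (0.0741). The next values were 0.0216 for Cald1, 0.0297 for Ace, 3.12 for Tmem37 and 15.3 for Ugp2. In rats handled for 4 days, 9 values of Cald1 and 5 of Ace lie in the lowest 10% of the signals of their arrays.

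The 3′ to 5′ log2 ratio of Gapdh was higher by 0.129 after 4 days than in control rats 4 to 10. Its control probe sets were not among those tested, and the ratio entered the fits of genes only as a covariate.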

How the results depend on the processing

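The number of calls depended on the fit more than the direction did. All 257 kept their sign with the Gapdh ratio as a covariate, while 14 of the 257 turned with all 10 control rats. Against 257 probe sets, 115 were called with the 2 groups fitted alone and 51 once the Gapdh ratio entered as a covariate, and the stricter adjusted p under 0.05 left 100. More were called with offsets of 0.05 (405) and 1 (636), with an intensity trend (565) and without the dimmest 40% of probe sets (635). Counts within 1.5 times of 257 came from quantile normalization (260), cyclic loess (264), array weights (373) and all 10 control rats (204). Fitted and adjusted over 1 probe set per gene alone, 14217 tests in place of 31042, 323 were called, against 149 of the same probe sets in the fit over all. At the methods' threshold of 0.001 without adjustment, 297 passed limma, 303 the methods' t-test and 237 the exact rank-sum test. Leaving out 1 rat at a time gave 74 to 421 calls. The count was 74 without control rat 6, 129 without control rat 10, 137 without 4, 147 without 9, 162 without 5, 421 without 7 and 158 without handled rat 10, and 61 of the 257 were called in all 27 of these fits. Sds kept its call in 12 of the 27, Per3 and Dusp1 in 11, Oplah and Cyp1a2 in 8, Stat5a in 7 and Plk3 in 5. Leaving out rats handled for 1 day was added after seeing the data.

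Of the called genes in tested lists, 26 in all, 13 were called with the 2 groups alone and 3 after adding the Gapdh ratio. With all 10 control rats the log2 difference turned to -0.55 and -0.86 for the 2 probe sets of Fasn, the brighter and the dimmer, -0.39 for Srebf1, -0.64 for Acly, -0.0052 for Tmem97 and -0.28 for Mid1ip1, and 57 of the 76 called probe sets named lost their call there, as did 59 with the Gapdh ratio and 35 with the 2 groups alone. For each of the probe sets whose sign turned, all 3 left-out control rats lay beyond control rats 4 to 10 on the side of the handled rats. The cause of the lost calls was not tested.

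Rats with the same number in the control and 4-day groups did not deviate together (correlations of -0.02 to 0.10, highest with the own number in 3 of 7), so the numbers do not pair them. With the replicate block 179 probe sets were called. Depth does not apply to intensities, and 37 of the 257 called probe sets had control medians below the array median.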
